A study of Mus musculus with 12 samples.

Results

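The Hox cluster genes comprised the 39 genes whose symbols name a Hox cluster, a to d, and a paralogue number, among 55335 genes counted in each of 12 RNA-seq libraries of cultured mouse muscle cells. The Hoxa cluster held 11 of them, the Hoxb cluster 10, and the Hoxc and Hoxd clusters 9 each. They lie on chromosomes 6, 11, 15 and 2. Of the 39 genes, 34 had enough reads to be tested; Hoxb1, Hoxb13, Hoxd1, Hoxd3 and Hoxd12 did not.

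Hox genes encode homeodomain transcription factors. Their order along the chromosome follows the order of the body regions where they are active in the embryo, so that low paralogue numbers mark the head and neck and high numbers the trunk end and the distal limb. In the limb, the genes of the Hoxa and Hoxd clusters with the highest numbers pattern upper limb, forearm or shank, and digits in turn, and adult connective tissue cells are known to keep much of this positional code in culture. Where Hox genes are silent they are classic targets of the Polycomb complexes, which place a ubiquitin on histone H2A and methyl groups on histone H3. BAP1, the enzyme deleted here, removes that ubiquitin.

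The cells were fibro-adipogenic progenitors (FAPs), the connective tissue cells between muscle fibres, sorted as Lin-, Vcam- and Sca1+ from forelimb and hindlimb muscle together and grown in 20% serum. Each group held 3 libraries. WT cells had received ethanol. Bap1KO cells had received 1 µM 4-hydroxytamoxifen (4-OHT), which activates a CreER recombinase to delete Bap1. The libraries labelled Smn1OE and Smn1OE_K186R came from cells with the same 4-OHT treatment that also received a vector for human SMN, the factor that assembles spliceosomal ribonucleoproteins, unmutated or with the K186R change. The treatment text names Rosa-CreER, active in all cell types, whereas the source label names Prrx1Cre, active in limb mesenchyme. That label, Prrx1Cre;Bap1f/f, also gives a floxed Bap1, the form that Cre can delete. WT is the term of the sample titles. Of these 4 groups, none carried an empty vector, and none received 4-OHT without the deletion. In Bap1KO against WT, 4-OHT and the deletion therefore cannot be told apart. WT and Bap1KO shared culture media batches A, B and C, with a library of each in every batch, and the SMN groups shared batches D, E and F. The labels number the replicates but name no animals, so p-values measure the spread between these samples, which may be technical.

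Library totals ran from 51.2 M to 68.2 M counts. Bap1 itself stood at 49.7, 49.7 and 52.0 CPM (counts scaled to the library's size) in WT and at 42.3, 39.3 and 39.4 CPM in Bap1KO (log2 fold change -0.32, adjusted p = 0.0139), a call lost without WT replicate 3 (adjusted p = 0.0689) or Bap1KO replicate 2 (0.0502) or 3 (0.0666). In the libraries labelled Smn1OE it stood at 50.04, 47.5 and 49.7 CPM, which did not pass the test against WT (-0.04, 95% interval -0.19 to 0.11). In those labelled Smn1OE_K186R it stood at 47.0, 41.7 and 47.3 CPM (-0.16 against WT, adjusted p = 0.0767). The count covers the whole gene, and the sources used here do not name the deleted exons, so it checks the deletion loosely. Xist was read at 197 to 305 CPM in WT and Bap1KO and at 0 to 0.113 CPM in the SMN groups, and the Y-linked Eif2s3y at 0 in WT and Bap1KO and at 57.9 to 69.7 CPM in the SMN groups. A comparison of an SMN group with WT or Bap1KO therefore also compares other media batches, other sex-linked expression and a vector. By these sex-linked genes the SMN cells likely came from other donor animals than WT and Bap1KO, though the labels name none. None of these differences can be told apart from SMN. Against Bap1KO, Bap1 itself was higher in Smn1OE (0.28, adjusted p = 0.00924) and did not pass in Smn1OE_K186R (0.17, adjusted p = 0.0810), and whether the deletion is as complete in them as in Bap1KO was not tested. The FAP markers Pdgfra and Ly6a (Sca1) were read in all libraries, and the 10 FAP markers summed to 18365 to 25710 CPM in WT, 11778 to 19414 in Bap1KO, 4446 to 7082 in Smn1OE and 5337 to 7690 in Smn1OE_K186R. The 4 tenocyte markers summed to 237 to 415 CPM in WT, 184 to 454 in Bap1KO, 25.9 to 37.8 in Smn1OE and 36.9 to 59.3 in Smn1OE_K186R, and the 9 myogenic markers to 107 to 155, 144 to 341, 338 to 597 and 266 to 554 CPM in the same order, with 3, 4, 1 and 3 of the 9 at 0 throughout the group. The higher myogenic sums do not show a rise across these markers. Only 4 of the 9 were tested, and none was called in either SMN group against Bap1KO. Of all genes, 33.5% were called there in Smn1OE and 32.6% in Smn1OE_K186R. The median log2 fold change of the 4 myogenic markers there was -0.50 in Smn1OE and -0.19 in Smn1OE_K186R. In Bap1KO against WT, with the media batch as a block, Acta1 was higher (0.94, adjusted p = 4.78e-05) and Des lower (-1.05, adjusted p = 0.00805). The 7 endothelial markers summed to 5.17 to 6.58 CPM in WT, 2.97 to 4.13 in Bap1KO, 2.83 to 3.04 in Smn1OE and 2.62 to 3.39 in Smn1OE_K186R. In the same order the 8 immune markers came to 21.4 to 27.7, 27.0 to 34.3, 20.9 to 26.4 and 20.4 to 28.5 CPM. The 5 pericyte markers came to 93.8 to 130, 94.7 to 134, 109 to 218 and 98.7 to 198 CPM. All 4 tested immune markers were called in each SMN group against Bap1KO, 2 higher and 2 lower, where 33.5% and 32.6% of all genes were called. The part of such cell differences in the Hox values was not tested. In bulk libraries fewer cells of a type and less RNA per cell cannot be told apart.

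Hox transcription in these FAPs was led by the genes with high numbers in the Hoxa and Hoxc clusters. Levels were compared between genes as CPM per kilobase (kb) of exon. Hoxc10, a gene of the hindlimb and lumbar region, was highest at 17.5 ± 2.3 CPM per kb in WT (SD, n = 3). Hoxa10 followed at 14.1 ± 0.98, and Hoxa11, which patterns the forearm and shank, at 13.9 ± 3.1 CPM per kb. Hoxc11 stood at 12.6 ± 1.2 and Hoxc13, a gene known for hair and nails, at 9.74 ± 1.0 CPM per kb. Among the first 4 genes, each overlapped with its neighbour in this order over the 3 WT libraries, while every Hoxc13 library lay below every Hoxc11 library. With the length of the longest transcript in place of the summed exons Hoxa10 came to 18.0 CPM per kb, above Hoxc10. About a 35% share of the Hoxa11 exon bases is also covered by the antisense gene Hoxa11os, and the strand setting of the counts is not given in the sources used here.

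In the Hoxd cluster the highest level was at a lower position. Hoxd8 led with 8.63 ± 1.3 CPM per kb in WT, ahead of Hoxd10 at 5.33 ± 1.9 and Hoxd9 at 3.70 ± 0.52. Beyond Hoxd10 the level dropped to 0.763 ± 0.28 CPM per kb for Hoxd11 and 1.02 ± 0.44 for Hoxd13, the digit gene. Hoxd12, which lies between them on the chromosome, had a count of 1 at most in any library, in 2 of the 12 libraries. The Hoxb cluster was low but for Hoxb9, at 3.19 ± 0.79 CPM per kb in WT, and Hoxb4 followed at 0.783 ± 0.12.

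**Figure D1:**
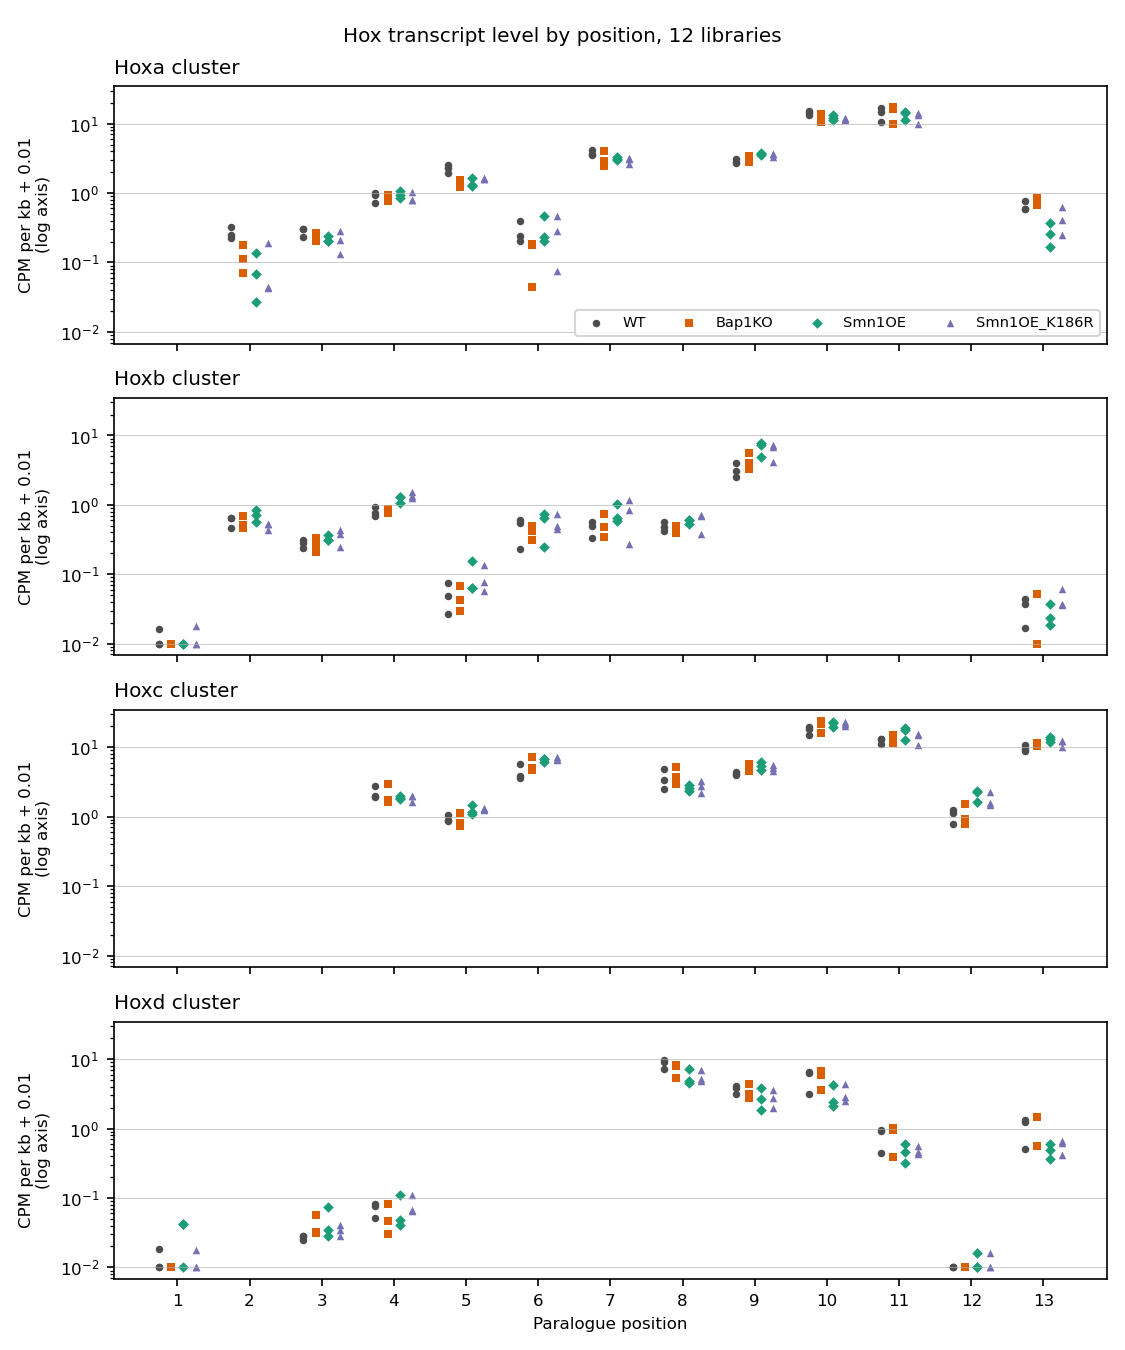
Level of the Hox genes (CPM per kb of exon plus 0.01, log axis) against paralogue position, with a panel for each cluster and a point for each of the 12 libraries, marked by group. Positions 10 and 11 hold the highest levels of the Hoxa and Hoxc clusters in all 4 groups, and Hoxb1, Hoxb13, Hoxd1, Hoxd3 and Hoxd12 lie near the bottom.

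By position, the 16 genes of paralogue groups 9 to 13 held 73.7 ± 1.1% of the Hox transcript level per kb in WT, the 15 genes of groups 4 to 8 held 23.8 ± 1.4% and the 8 genes of groups 1 to 3 held 2.49 ± 0.27%. The posterior share was 75.7 ± 1.9% in Bap1KO, 76.8 ± 2.3% in Smn1OE and 75.3 ± 0.80% in Smn1OE_K186R. By cluster, Hoxc genes held 45.9 ± 6.4% in WT, Hoxa genes 33.2 ± 2.7%, Hoxd genes 15.8 ± 3.1% and Hoxb genes 5.08 ± 0.86%. The order of the 39 genes by level per kb was close to the same in each group, with a Spearman rho of 0.995 across genes between Bap1KO and WT and of 0.969 to 0.996 over all pairs of groups. Genes are not independent replicates, so this is a description.

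Promoter sequence was on record in RefSeq (GRCm38.p6) for 22 of the 39 genes, as 24 windows of the 250 bases before the start site. The windows of 4 members are printed 5′ to 3′ because these genes carry some of the differences described next. CG dinucleotides, which are known to be dense in Polycomb targets, are in capitals. Hoxa5 is at chr6:52204588-52204837 on the minus strand, Hoxa13 at chr6:52260881-52261130 on the minus strand, Hoxb4 at chr11:96318017-96318266 on the plus strand and Hoxd13 at chr2:74667975-74668224 on the plus strand.
Hoxa5: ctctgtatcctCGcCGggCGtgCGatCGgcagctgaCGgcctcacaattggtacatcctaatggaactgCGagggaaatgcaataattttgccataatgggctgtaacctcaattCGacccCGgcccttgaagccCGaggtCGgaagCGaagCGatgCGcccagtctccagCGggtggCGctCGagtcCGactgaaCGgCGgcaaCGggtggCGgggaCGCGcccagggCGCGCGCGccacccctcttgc
Hoxa13: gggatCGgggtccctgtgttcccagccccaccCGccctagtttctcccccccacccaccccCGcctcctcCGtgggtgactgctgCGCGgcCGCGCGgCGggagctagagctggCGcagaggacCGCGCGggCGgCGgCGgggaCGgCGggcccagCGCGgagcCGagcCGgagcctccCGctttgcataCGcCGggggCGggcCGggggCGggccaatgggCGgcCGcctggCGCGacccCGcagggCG
Hoxb4: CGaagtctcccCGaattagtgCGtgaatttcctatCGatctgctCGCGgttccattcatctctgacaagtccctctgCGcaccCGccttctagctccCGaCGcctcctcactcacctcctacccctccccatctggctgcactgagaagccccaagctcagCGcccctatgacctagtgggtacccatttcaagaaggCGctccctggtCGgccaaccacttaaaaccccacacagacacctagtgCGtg
Hoxd13: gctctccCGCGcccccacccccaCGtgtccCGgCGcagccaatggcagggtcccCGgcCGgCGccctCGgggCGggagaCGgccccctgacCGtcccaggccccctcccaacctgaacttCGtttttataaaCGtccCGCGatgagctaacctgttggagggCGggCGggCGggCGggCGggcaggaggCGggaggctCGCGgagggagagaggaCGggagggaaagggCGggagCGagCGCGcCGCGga
The 4 windows hold 28, 35, 14 and 31 CG dinucleotides in that order. Other members with differences described below have windows not printed, among them Hoxd8 with 6 CG, Hoxa9 with 3 and Hoxa10 with 20 or 7 by window. Over the 24 Hox windows the count ran from 2 to 35 with a median of 12.5, against a median of 6 over 32851 windows of all genes and 14.5 over 54 windows of other developmental regulators on a list chosen by hand. At least 10 CG were found in 62.5% of Hox windows and in 37.8% of all windows. Searched on both strands, the MEIS-type motif TGACAG was in 8.33% of Hox windows and 15.9% of all windows, the HOX-PBX-type motif TGATNNAT in 16.7% and 7.68%, and TATAAA in 16.7% and 12.4%. None of these 3 motifs was in the printed windows except TATAAA, found in that of Hoxd13, where its 2 matches lie on opposite strands and overlap. A match is a description of the letters.

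In Bap1KO, Hoxa5 was lower than in WT, and it was the only gene of the 4 clusters to pass this test. Hoxa5, which patterns the shoulder region and the lung, stood at 4.76, 4.35 and 3.67 CPM in WT and at 2.88, 2.85 and 2.31 CPM in Bap1KO. Every Bap1KO library lay below every WT library. The log2 fold change was -0.67 ± 0.17 (SE; adjusted p = 0.0315). The call was lost without WT replicate 1 (adjusted p = 0.125) or 2 (0.0892) and without Bap1KO replicate 2 (0.0598) or 3 (0.124), while the fold change stayed between -0.75 and -0.57.

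Thus 1 of 34 Hox genes (2.94%) was called, where 9.72% of the 16597 genes tested were called, 3.36% higher and 6.37% lower. The median size of the log2 difference was 0.16 over the 34 Hox genes and 0.23 over all genes. For 24 of the 34 genes the 95% interval of the difference lay within 2-fold either way, including all 9 Hoxc genes. For the other 10 the interval reached beyond 2-fold. Hoxa2 and Hoxa6 had the largest fitted differences, -1.20 (interval -2.69 to 0.28) and -1.11 (interval -2.65 to 0.44), at 0.427 to 0.563 CPM and 0.168 to 0.335 CPM in WT and 0.109 to 0.298 CPM and 0.0298 to 0.152 CPM in Bap1KO. For both, the groups did not overlap but the counts were few, at 2 to 37 and 2 to 27 reads per library over all 12 libraries, SMN groups included. Groups did not overlap for 4 tested Hox genes in all, Hoxc9 being higher and Hoxa2, Hoxa5 and Hoxa6 lower, against 32.3% of all genes, 14.5% with every Bap1KO library higher and 17.8% with every one lower.

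The members with almost no reads in WT had almost none in Bap1KO. Hoxb1 and Hoxd12 had no read in any Bap1KO library, and Hoxd1 had none either. A count of 0 allows a level of up to 3 counts per library. Hoxb13 had 0, 6 and 0 reads in Bap1KO and 4, 5 and 1 in WT. Hoxd3 stood at 0.0619 to 0.0763 CPM in WT and 0.0907 to 0.194 CPM in Bap1KO, values too low for the test, and 62.8% of its exon bases are shared with neighbouring genes.

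**Figure D2:**
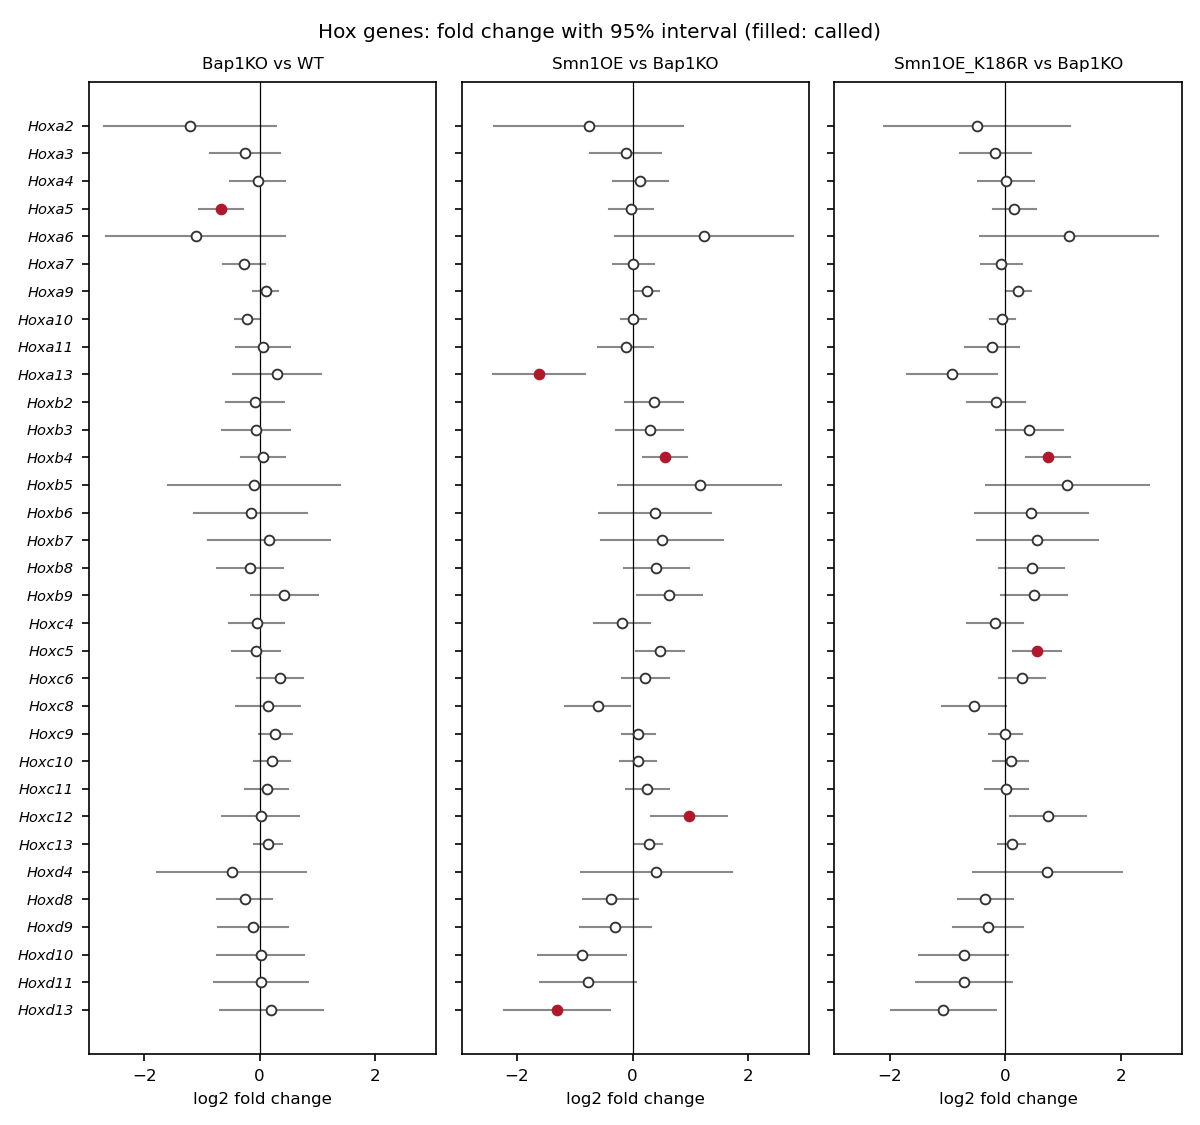
Log2 fold change with its 95% interval for tested Hox genes in Bap1KO against WT, Smn1OE against Bap1KO and Smn1OE_K186R against Bap1KO, with called genes filled. Only Hoxa5 is filled in the comparison of Bap1KO with WT, and the last 2 panels share the Bap1KO libraries.

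Compared within their media batches, more members differed between Bap1KO and WT, each by less than Hoxa5. With the batch as a block, 7 Hox genes (20.6%) were called, where 29% of all genes were called, 11.9% higher and 17.2% lower. With the batch as a random effect in limma voom the count was 4, against 27.9% of all genes, and of the 7 genes named next Hoxb9 (adjusted p = 0.0941), Hoxc9 (0.0586), Hoxc10 (0.125) and Hoxd8 (0.141) did not pass. Hoxb9 (0.43, adjusted p = 0.00236), Hoxc6 (0.36, adjusted p = 0.00726), Hoxc9 (0.27, adjusted p = 0.0478) and Hoxc10 (0.21, adjusted p = 0.0299) were higher, and Hoxa5 (-0.67, adjusted p = 0.00452), Hoxa10 (-0.22, adjusted p = 0.0323) and Hoxd8 (-0.27, adjusted p = 0.0188) were lower. Hoxb9, a trunk gene, stood at 7.92, 10.4 and 6.36 CPM in WT and 10.3, 14.3 and 8.55 CPM in Bap1KO for batches A, B and C. It was higher in Bap1KO than in WT in each batch, though the groups overlap. Hoxc6, a gene of the thoracic region, stood at 9.17, 8.71 and 13.8 CPM in WT and 12.2, 11.2 and 17.2 CPM in Bap1KO, likewise higher in each batch. Of the 5 posterior Hoxc genes, 4 were fitted above 0 with the block and 1, Hoxc12, was not.

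Many Hox genes differed between media batches in WT and Bap1KO alike. In batch C, 15 of the 34 Hox genes (44.1%) had both libraries, WT and Bap1KO, outside the range of the other 4 libraries, against 12.3% of all genes. For batches A and B the shares were 20.6% and 23.5% of Hox genes, against 15.1% and 17.5% of all genes. The lower 11 were Hoxa4, Hoxa11, Hoxb2, Hoxb5, Hoxb6, Hoxb7, Hoxd8, Hoxd9, Hoxd10, Hoxd11 and Hoxd13, and the higher 4 were Hoxc4, Hoxc6, Hoxc8 and Hoxc12. The batch is the labels' own term, and no test was made of it.

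The Hoxd genes showed it most plainly. Hoxd13 stood at 3.09, 3.24 and 1.25 CPM in WT and 3.67, 3.66 and 1.38 CPM in Bap1KO for batches A, B and C. Hoxd11 stood at 3.97, 3.83 and 1.84 CPM and 4.20, 3.92 and 1.62 CPM in the same order. In each case the batch C library was below the others of its group, in WT and Bap1KO alike. Hoxc8, a thoracic gene, went the other way with 9.52, 7.19 and 13.9 CPM in WT and 10.5, 8.27 and 14.9 CPM in Bap1KO. Summed over the cluster, Hoxd genes came to 53.9, 52.6 and 35.3 CPM in WT and 48.5, 50.9 and 30.3 CPM in Bap1KO, while the central Hoxc genes came to 26.3, 24.2 and 37.5 CPM and 29.5, 26.2 and 43.2 CPM.

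Batch D set its libraries apart in the SMN groups in a similar number of genes, 13 of 34 (38.2%) against 21.3% of all genes. Here Hoxd8, Hoxd9, Hoxd10 and Hoxd11 were among the 9 higher members and Hoxc10, Hoxc11 and Hoxc13 among the 4 lower. Hoxd10 stood at 7.76, 4.37 and 3.86 CPM in Smn1OE and 8.08, 4.49 and 5.21 CPM in Smn1OE_K186R for batches D, E and F. For batches E and F the shares were 35.3% and 23.5% of Hox genes, against 23.3% and 27.8% of all genes.

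Hand2, the regulator of the posterior limb bud, was also lowest in batch C, at 29.2, 23.8 and 12.1 CPM in WT and 18.3, 14.6 and 7.08 CPM in Bap1KO. Of the 23 tested limb patterning genes, 5 had both batch C libraries outside the other 4, Hand2, Lmx1b and Sall1 lower and Prrx1 and Msx1 higher, against 12.3% of all genes. Of the limb-type genes, Tbx5 (forelimb), Tbx4 and Pitx1 (hindlimb) did not have both batch C libraries outside the others. Pitx1 stood at 20.1, 22.9 and 21.8 CPM in WT and 20.5, 25.1 and 23.3 CPM in Bap1KO. The ratio of forelimb to hindlimb cells in a library is not given in the sources used here, and its part in the batch pattern was not tested.

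**Figure D3:**
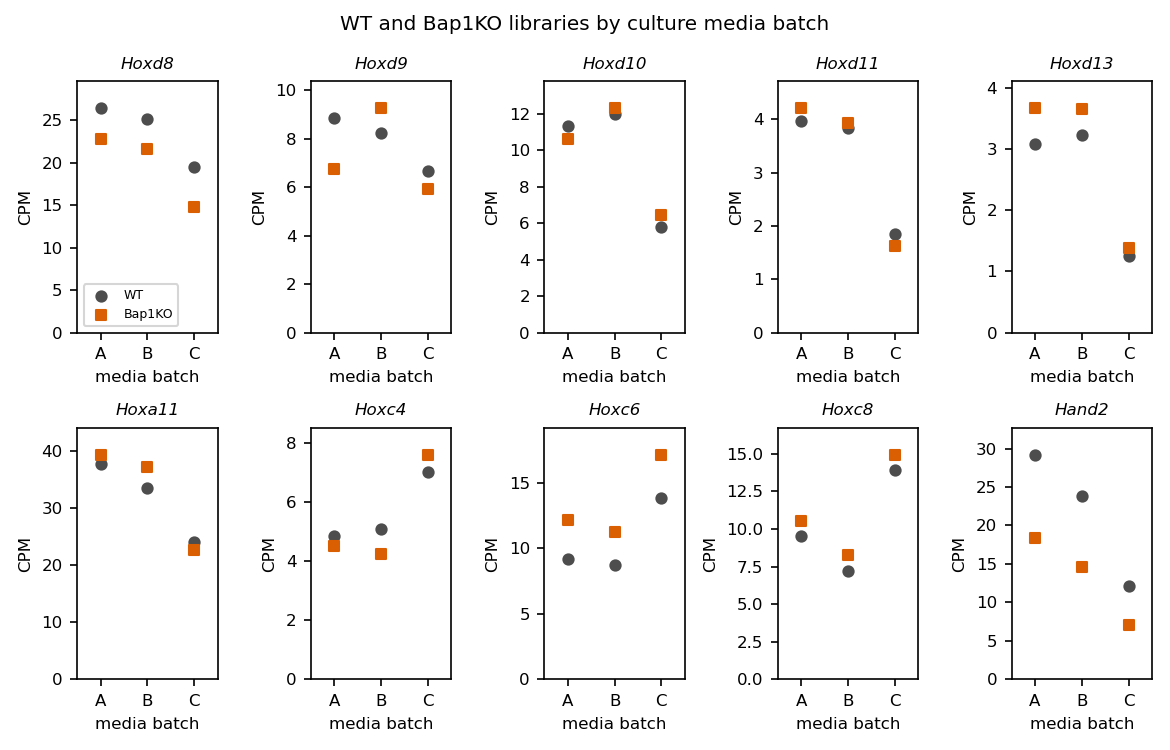
CPM of 9 Hox genes and Hand2 in WT and Bap1KO libraries by media batch. The batch C libraries lie lowest for the 5 Hoxd genes, Hoxa11 and Hand2 and highest for Hoxc4, Hoxc6 and Hoxc8, in both groups.

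The libraries labelled Smn1OE were higher in Hoxb4 and Hoxc12 and lower in the digit genes Hoxa13 and Hoxd13 than Bap1KO. In Smn1OE against Bap1KO, 4 of 34 Hox genes (11.8%) were called, 2 higher and 2 lower, where 33.5% of all genes were called, 15.8% higher and 17.7% lower. Groups did not overlap for 8 of the 34, against 48.6% of all genes. With the batch as a random effect 7 Hox genes were called, against 33.2% of all genes. Hoxa13, the digit gene of its cluster, stood at 2.09, 2.09 and 1.65 CPM in Bap1KO and at 0.899, 0.388 and 0.606 CPM in the libraries labelled Smn1OE. All Smn1OE libraries lay below all Bap1KO libraries, and the difference was -1.62 ± 0.37 (SE; adjusted p = 0.00634), called also without each library in turn. In Smn1OE_K186R it stood at 1.52, 0.582 and 0.979 CPM, a difference of -0.92 that did not pass (adjusted p = 0.0654).

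Hoxd13 stood at 1.44, 0.880 and 1.19 CPM in Smn1OE, against 3.67, 3.66 and 1.38 CPM in Bap1KO. Bap1KO replicate 3, the batch C library, lay within the Smn1OE range, so the groups overlap. The difference was -1.31 ± 0.42 (adjusted p = 0.0321), and -1.65 (adjusted p = 0.0122) without that library. Leaving out Bap1KO replicate 1 (adjusted p = 0.104) or 2 (0.0825), or any Smn1OE replicate (0.0514 to 0.0963), ended the call. In Smn1OE_K186R Hoxd13 stood at 1.59, 1.53 and 0.998 CPM, a difference of -1.08 that did not pass (adjusted p = 0.0657).

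Hoxb4, known for its role in blood stem cells, was called in both SMN groups. It stood at 2.18, 1.94 and 2.20 CPM in Bap1KO, 3.31, 2.74 and 3.29 CPM in Smn1OE and 3.88, 3.23 and 3.37 CPM in Smn1OE_K186R. Neither SMN group overlapped with Bap1KO. The difference was 0.57 ± 0.17 (adjusted p = 0.0266) and 0.73 ± 0.17 (adjusted p = 0.0085). The K186R call was kept without each library in turn, and the other was lost without any Bap1KO library or without Smn1OE replicate 1 or 3 (adjusted p = 0.0573 to 0.0846).

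Hoxc12 was higher in Smn1OE, at 1.68, 2.37 and 2.35 CPM against 0.790, 0.930 and 1.54 CPM in Bap1KO (0.98 ± 0.30, adjusted p = 0.0279). The groups did not overlap. Leaving out Bap1KO replicate 1 (adjusted p = 0.109) or 2 (0.0736), or Smn1OE replicate 2 (0.0740) or 3 (0.0836), ended the call. Smn1OE_K186R had 2 genes called (5.88%), both higher, where 32.6% of all genes were called, 16.1% higher and 16.5% lower. Groups did not overlap for 4 of the 34, against 43.7% of all genes. Besides Hoxb4 this was Hoxc5, at 3.86, 4.16 and 4.01 CPM against 2.26, 2.50 and 3.52 CPM (0.54 ± 0.19, adjusted p = 0.0471), again without overlap. Leaving out Bap1KO replicate 1 (adjusted p = 0.176) or 2 (0.119) ended this call, as did leaving out any Smn1OE_K186R replicate (0.0771 to 0.100). The other members gave differences between -0.88 and 1.24 in Smn1OE and between -1.08 and 1.10 in Smn1OE_K186R, and none passed. The 2 comparisons share the Bap1KO libraries.

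**Figure D4:**
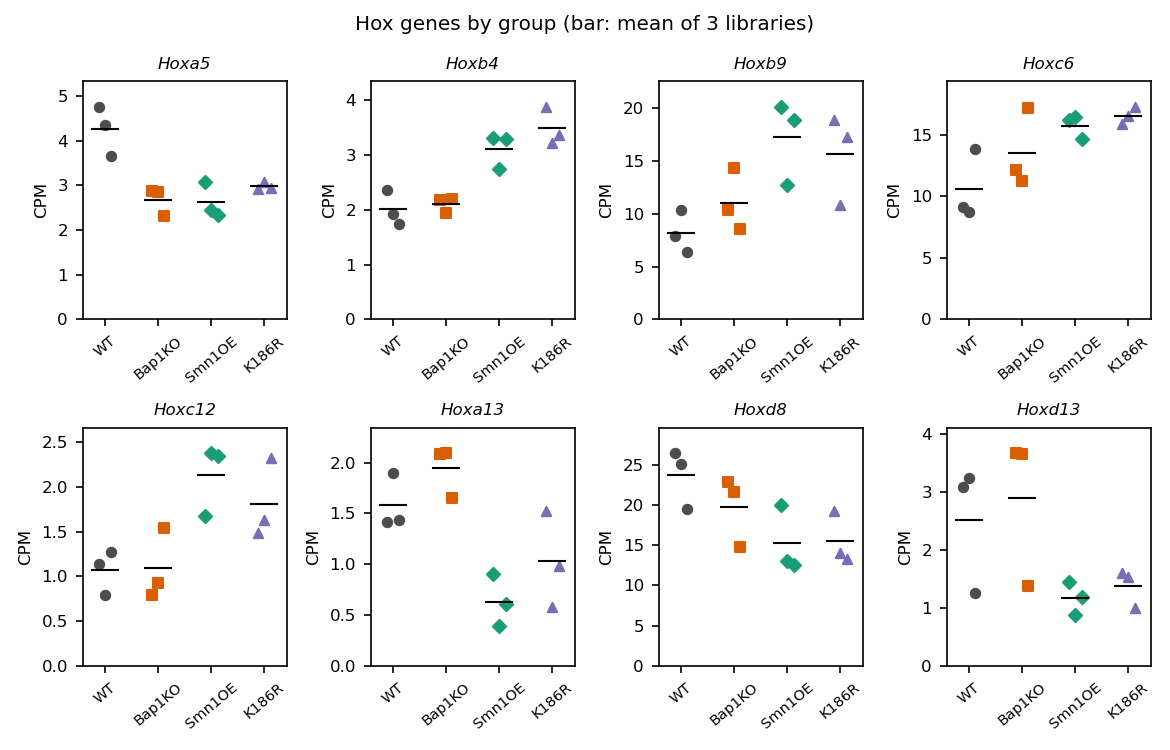
CPM of 8 Hox genes in each library by group, with replicates 1 to 3 from left to right and a bar at the mean of 3 libraries. Hoxa5 is lower in Bap1KO and both SMN groups than in WT, Hoxb4 is higher in the SMN groups than in WT and Bap1KO, and replicate 3 of WT and of Bap1KO is low for Hoxd13.

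Against WT, where 4-OHT, vector, batch and sex-linked expression differ and the labels also give a Bap1 deletion, 13 Hox genes (38.2%) were called in Smn1OE and 8 (23.5%) in Smn1OE_K186R. Over all genes 50.4% (23.8% higher, 26.6% lower) and 50.5% (24% higher, 26.5% lower) were called. In Smn1OE, 8 were higher and 5 lower. Higher genes included Hoxa9 (0.35), Hoxb4 (0.63), Hoxb9 (1.07), Hoxc6 (0.58), Hoxc9 (0.37), Hoxc12 (1.00) and Hoxc13 (0.42). The lower ones were Hoxa2 (-1.96), Hoxa5 (-0.69), Hoxa13 (-1.32), Hoxd8 (-0.64) and Hoxd13 (-1.11). Of these 13 calls, 6 were kept without each library in turn, those of Hoxa5, Hoxa9, Hoxa13, Hoxb4, Hoxb9 and Hoxc13.

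In Smn1OE_K186R, 5 were higher and 3 lower. Higher genes included Hoxa9 (0.33), Hoxb4 (0.80), Hoxb9 (0.93) and Hoxc6 (0.65), and the lower ones were Hoxa5 (-0.52), Hoxa10 (-0.27) and Hoxd8 (-0.61). With RLE in place of TMM scaling the split was 8 higher and 2 lower, and Hoxa10 was no longer called. Only the calls of Hoxb4 and Hoxb9 were kept without each library in turn. Hoxb9 had the largest called rise in each SMN group, at 20.1, 12.8 and 18.9 CPM in Smn1OE and 18.9, 10.8 and 17.3 CPM in Smn1OE_K186R against 7.92, 10.4 and 6.36 CPM in WT. Every SMN library lay above every WT library, and batch E gave the lowest value of each SMN group. By cluster, no Hoxb or Hoxc gene was called lower and no Hoxd gene was called higher in either SMN group against WT, with TMM or RLE scaling or DESeq2. Most were not called. With TMM the called were 2 of 8 tested Hoxb, 4 of 9 Hoxc and 2 of 6 Hoxd genes in Smn1OE, and 2, 1 and 1 in Smn1OE_K186R. Over all genes 50.4% and 50.5% were called with TMM. With RLE scaling, and likewise with DESeq2, 4 Hoxc genes were called in Smn1OE_K186R. Among uncalled members, 2 Hoxc genes were fitted lower in each SMN group. In Smn1OE_K186R 1 Hoxb gene was fitted lower and 1 Hoxd gene higher.

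No Hox gene passed the test between the K186R and the unmutated form of SMN. None of the 34 was called by edgeR, by DESeq2 or with the media batch as a block, while of all genes 0% were called without and 0.289% with the block. Hoxb2, at 1.83, 1.48 and 1.79 CPM in Smn1OE_K186R and 2.46, 1.97 and 2.95 CPM in Smn1OE, was the 1 member with an unadjusted p under 0.05 without the block (-0.53, adjusted p = 0.997). With the block there were 4, namely Hoxa13, Hoxb2, Hoxc11 and Hoxc13, with adjusted p from 0.224 to 0.372. For 25 of the 34 genes the 95% interval lay within 2-fold either way. Hoxa13 had the highest estimate, 0.70, with an interval from -0.10 to 1.50. With the block it was 0.68 ± 0.23 (SE; unadjusted p = 0.0116, adjusted p = 0.323), higher in Smn1OE_K186R in each of batches D, E and F.

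Of 23 tested limb patterning genes, 3 (13%) were called in Bap1KO against WT, where 9.72% of all genes were called. All 3 were lower, namely the mesenchyme factors Prrx2 (-0.56, adjusted p = 0.0239), Tbx18 (-0.49, adjusted p = 0.0469) and Twist1 (-0.33, adjusted p = 0.0403). With the block 10 were lower and none higher, where 17.2% of all genes were lower and 11.9% higher, with Hand2 (-0.71, adjusted p = 6.19e-05) and Tbx4 (-0.90, adjusted p = 0.00123) among them. In the same fit 9 of 10 FAP markers and 4 of 5 pericyte markers were lower and the other pericyte marker, Cspg4, higher, and their part in this was not tested. Tbx4 stood at 4.79, 5.37 and 4.57 CPM in WT and 1.97, 3.35 and 2.69 CPM in Bap1KO, with no overlap. Without the block it did not pass (-0.88, adjusted p = 0.0727). None of the 3 calls made without the block was kept without each library in turn.

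In Smn1OE against Bap1KO, 8 of the 23 limb genes were lower and 1 higher (39.1% called, where 33.5% of all genes were called). Tbx5 stood at 8.27, 5.15 and 7.01 CPM in Bap1KO and 3.30, 2.43 and 2.14 CPM in Smn1OE (-1.37, adjusted p = 0.00176). In Smn1OE_K186R it stood at 3.64, 3.20 and 2.15 CPM (-1.18, adjusted p = 0.00391), again below every Bap1KO library. Prrx2 was lower by -1.50 (adjusted p = 7.9e-05) and Shox2 by -0.61 (adjusted p = 0.0242) in Smn1OE, and Tbx3 was higher by 0.53 (adjusted p = 0.012). The calls of Tbx5, Prrx2 and Tbx3 were kept without each library in turn, and that of Shox2 was lost without Bap1KO replicate 1 (adjusted p = 0.0862) or 3 (0.0640) or Smn1OE replicate 1 (0.0712) or 3 (0.0962). Pitx1 did not pass in any comparison and lay between 18.0 and 25.7 CPM over all 12 libraries. The lower sums of FAP and tenocyte markers given above go with these differences, and their part in them was not tested.

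**Figure D5:**
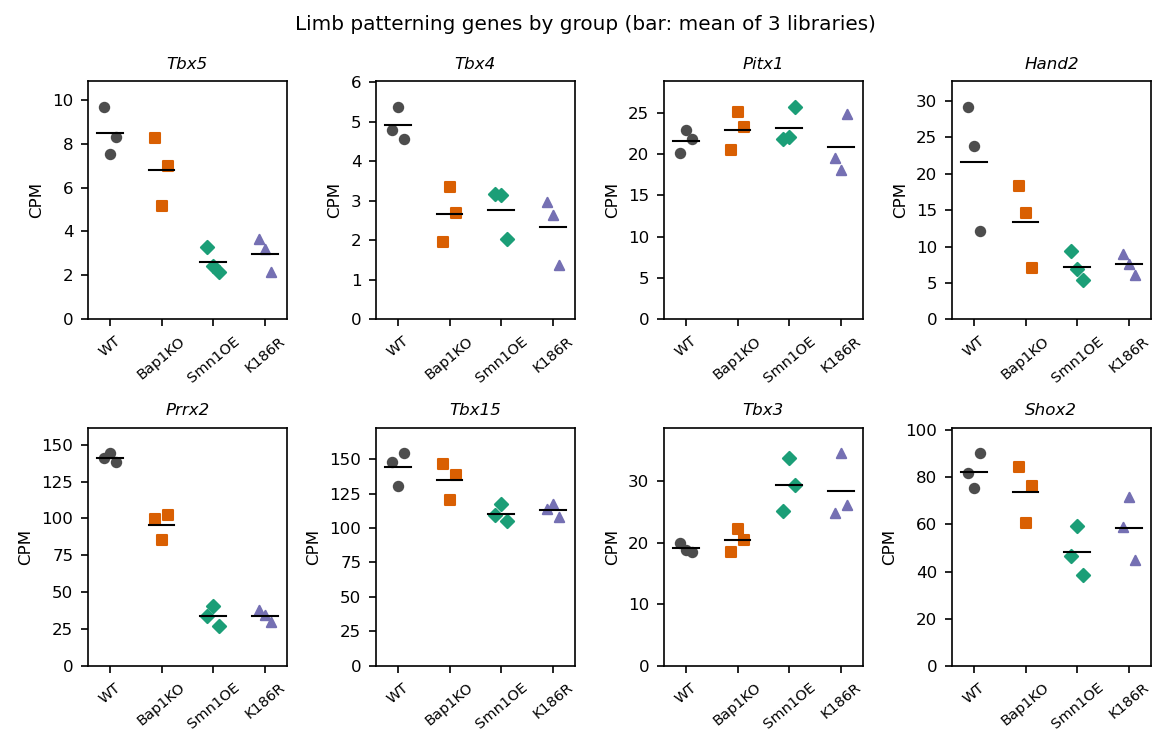
CPM of 8 limb patterning genes in each library by group, with replicates 1 to 3 from left to right and a bar at the mean of 3 libraries. Tbx5, Hand2, Prrx2 and Shox2 are lower in the SMN groups than in WT, Tbx3 is higher, and Pitx1 stays between 18.0 and 25.7 CPM.

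Of 31 Polycomb genes, 4 (12.9%) were called in Bap1KO against WT, where 9.72% of all genes were called. Cbx7 (-1.29, adjusted p = 0.0434) and Cbx6 (-0.58, adjusted p = 0.0128), whose products read methylated histone H3, were lower, as was the PRC1 subunit Phc1 (-0.58, adjusted p = 0.0161). Aebp2, a PRC2 partner, was higher (0.29, adjusted p = 0.0437). With the block, which called 29% of all genes, 4 Polycomb genes were higher and 7 lower. Cbx7 stood at 1.70, 1.62 and 1.98 CPM in WT and 0.745, 0.503 and 0.926 CPM in Bap1KO, with no overlap. Of 35 tested homeobox and other developmental genes outside the clusters, 2 (5.71%, against 9.72% of all genes) were called, both higher, the LIM-homeobox genes Lhx5 (2.67, adjusted p = 0.0437) and Lhx2 (1.45, adjusted p = 0.045). Lhx2 stood at 0.517, 0.351 and 0.310 CPM in WT and 1.03, 0.945 and 1.25 CPM in Bap1KO. With the block 4 of the 35 were higher and 2 lower, against 29% of all genes called. No call of the Polycomb or this list without the block was kept without each library in turn.

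None of the 11 genes of the PBX, MEIS and related cofactors with which Hox proteins bind DNA was called in Bap1KO against WT (9.72% of all genes), and 2, Pknox2 and Tgif2, were lower with the block (29% of all genes called). In Smn1OE against Bap1KO 4 of the 11 (36.4%) were called, where 33.5% of all genes were: Pknox2 (-1.36, adjusted p = 0.00886), Pbx3 (-0.39, adjusted p = 0.00985) and Pbx2 (-0.33, adjusted p = 0.00219) were lower and Tgif1 (0.53, adjusted p = 0.00755) was higher. Of 8 tested noncoding and neighbour genes of the clusters none was called in Bap1KO against WT, against 9.72% of all genes. Hotair, the noncoding RNA of the Hoxc cluster, stood at 1.00, 0.946 and 1.39 CPM in WT and 1.58, 1.77 and 2.12 CPM in Bap1KO, which do not overlap (0.71, adjusted p = 0.152). With the block it was called (0.72, adjusted p = 0.0178), as was Hoxd3os1 (-0.65, adjusted p = 0.0268), where 29% of all genes were called. Hoxa11os followed the batches as Hoxa11 did, at 9.46, 9.17 and 5.14 CPM in WT and 7.97, 8.08 and 4.68 CPM in Bap1KO.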

How the data were processed

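RNA from 12 cultures (4 groups of 3) was sequenced as paired-end TruSeq libraries. The authors deposited raw read counts per Ensembl gene, 1 table per library, with no normalization. Per the submitters' processing notes, the tools were STAR 2.6.1 and HTSeq 0.9.1, besides CASAVA 1.8.2, cutadapt 1.4.2 and DESeq2, with build GRCm39. Annotation release and strand setting are not given in the sources used here, so genes that overlap others are uncertain. The 5 closing rows that name no gene (11.1 to 14.6% of records) were left out.

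Symbols and exon lengths were taken from GENCODE M21 (mouse build before GRCm39), where 55154 of 55335 IDs were found. Counts were scaled by TMM, filtered with filterByExpr (minimum count 10, leaving 16597 genes), and fitted over all 12 libraries with edgeR 4.0.16 (R 4.3.3, quasi-likelihood, 4 groups, 8 residual degrees of freedom). Genes with a 2-sided Benjamini-Hochberg adjusted p under 0.05 over all genes tested are called, in 6 comparisons; every adjusted p is from this fit unless a block is named. Values are TMM-scaled CPM, and intervals are at 95%. An exact permutation test of 3 against 3 cannot go below 0.1 and was not used. The scripts were tested on simulated data.

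The labels name a shared media batch, which pairs the libraries: deviations from group means correlated across all genes at 0.24 to 0.43 within batches and at -0.35 to 0.049 between batches. Over the 34 tested Hox genes the ranges were 0.40 to 0.82 within and -0.69 to 0.43 between, which overlap. Deviations from a group mean cancel out within the group, so negative values between batches follow in part from positive ones within. The block fit used edgeR with the batch as a term. Alternatives were DESeq2 1.42.0, RLE scaling, other filters, fewer groups, limma voom 3.58.1 with the batch as a random effect, leaving out each library, and, chosen after seeing the data, leaving out batch C. Members and gene lists were chosen with earlier results of these data known. All Hox genes are in the counts; the values of 1 item are not reported here. Named in full are the highest per kb, those called (up to 12 per comparison, less that item), Tbx5, Tbx4 and Pitx1, and up to 4 called genes per list and direction; Hoxa2, Hoxa6, Hoxb2, Hoxc8, Hoxd3, Hoxd10, Hoxd11, Hoxb13, Hoxb1, Hoxd1, Hoxd12, Hoxc11, Hand2, Lmx1b, Sall1, Prrx1, Msx1, Hotair, Hoxd3os1, Tgif2 and Hoxa11os were picked after their values were seen.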

Additional observations from a re-analysis of the deposited data

How the results depend on the processing

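Counts of called Hox genes in Smn1OE against WT (13), Smn1OE_K186R against WT (8) and between the SMN groups (0) stayed within 1.5 times under every alternative other than leaving out a library, which gave 7 to 13, 2 to 8 and 0 in each case. In Bap1KO against WT the count of 1 became 0 with no filter, with only the 2 groups in the fit and without batch C, and 0 to 1 without a library. Pairing the libraries with the media batch as a block gave 7, and with it as a random effect 4 (27.9% of all genes). In Smn1OE against Bap1KO the count of 4 became 7 with DESeq2, 7 with the batch as a random effect, 7 without batch C, and 1 to 6 without a library. It was 1 without Bap1KO replicate 1 or Smn1OE replicate 3. In Smn1OE_K186R against Bap1KO the count of 2 became 5 with DESeq2, 5 with no filter, 1 with only the 2 groups, 6 without batch C, and 1 to 5 without a library. Between the SMN groups the block gave 0, and it can be fitted only where groups share batches. The only reversed signs were of uncalled values when a library was left out. Tbx4 ranged from -0.12 to 0.26 in Smn1OE against Bap1KO, from -0.41 to 0.064 in Smn1OE_K186R against Bap1KO and from -0.47 to 0.0074 between the SMN groups. Pitx1 ranged from -0.066 to 0.080 in Smn1OE against Bap1KO and from -0.21 to 0.036 in Smn1OE_K186R against WT. Reversed values within these ranges were -0.05 and -0.04 for Tbx4 in Smn1OE, 0.0021 for Tbx4 in Smn1OE_K186R and -0.06 for Pitx1 in Smn1OE, all against Bap1KO. The cause was not tested. RLE scaling moved the median of all genes by 0.04 at most. With the longest transcript as length, 3 of the 10 highest levels per kb in WT moved by more than their SD, to 18.0 for Hoxa10, 6.69 for Hoxc6 and 5.32 for Hoxa7. Genes with few reads, such as Hoxa2 and Hoxa6, have wide intervals.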
